A study of Mus musculus with 5 samples.

Results

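The cluster of miR-132 and miR-212 is a pair of neighbouring miRNA hairpins, and each hairpin yields a 5p and a 3p strand. Its 4 mature miRNAs, mmu-miR-132-3p, mmu-miR-132-5p, mmu-miR-212-3p and mmu-miR-212-5p (mmu for mouse), were taken by name from a table of 1966 mouse miRNAs, of which 517 had a count in at least 1 library. The counts come from small RNA of extracellular vesicles (EVs), membrane vesicles that cells release into their medium. The series compared 3 libraries of freeze-dried EVs with 2 libraries of EVs that had not been dried, which the labels call unmodified. All EVs were from mesenchymal stem cells of C57BL/6-GFP transgenic mice, stromal cells that can form bone, cartilage and fat. The EVs were pelleted by ultracentrifugation from medium in which cells had been held for 48 h with reduced serum. Per the labels the freeze-dried EVs were frozen in buffer with 25 mM trehalose, dried overnight and rehydrated for 1 h, while no storage temperature is tied to the unmodified group. The labels do not say whether replicates came from separate cultures, so the spread between libraries may be technical.

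miR-132 and miR-212 are made from a common primary transcript. In neurons the transcription factor CREB switches this transcript on after synaptic activity or neurotrophin signalling, and miR-132 then promotes the growth of dendrites. In endothelial cells miR-132 is known for promoting vessel growth by repressing the Ras inhibitor p120RasGAP. The 3p strands are the ones usually loaded into Argonaute as guides, and the 5p strands are the partners released from the duplex, which can also be loaded.

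The mature sequences are shown because the seed, bases 2 to 8 and printed in capitals, decides which messenger RNAs a miRNA pairs with. They are RefSeq sequences on GRCm38.p6, in which all 4 members were found.
miR-132-3p: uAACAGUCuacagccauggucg
miR-212-3p: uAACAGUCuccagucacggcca
miR-132-5p: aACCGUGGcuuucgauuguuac
miR-212-5p: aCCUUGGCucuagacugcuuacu
The 3p strands had the same seed, AACAGUC, and were identical over their first 9 bases and at 17 of 22 positions, counted from the 5′ end. The first difference was A10C, with the base of miR-132-3p given first. Among the 1675 rows of the table that have a RefSeq sequence, these were the only 2 with this seed. The 5p strands matched at 9 of 22 positions, had different seeds, and shared theirs with no other row. Reads of the 4 strands can therefore be told apart over their full length, while the counting of shortened reads is not given in the sources used here.

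The hairpins are shown to place the strands, with the mature 5p and 3p strands in capitals.
Mir212: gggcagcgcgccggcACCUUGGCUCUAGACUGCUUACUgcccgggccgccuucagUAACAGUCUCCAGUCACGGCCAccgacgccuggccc
Mir132: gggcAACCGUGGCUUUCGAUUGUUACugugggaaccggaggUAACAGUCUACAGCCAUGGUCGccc
Mir212 lies at chr11:75173388-75173478 and Mir132 at chr11:75173682-75173747, both on the plus strand of GRCm38.p6, with 203 bases between them. In GENCODE M21, which uses GRCm38, both fall within 1700016P03Rik, a non-coding gene on the same strand. They overlap its introns and none of its exons.

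Total miRNA counts were 192450 to 2914305 in the freeze-dried libraries and 131507 to 912080 in the unmodified ones. Freeze-dried replicate 3 and unmodified replicate 2 are the shallow libraries, both under 500000 counts, a line drawn after the data were examined. A count of 0 allows up to 3 counts, which corresponds to 1.09, 1.16 and 17.1 CPM (counts relative to the library total, scaled by TMM normalisation) in freeze-dried replicates 1, 2 and 3, and to 2.94 and 23.0 CPM in unmodified replicates 1 and 2. These limits, and the binomial intervals below, cover counting error only. The 12 mesenchymal markers listed, among them miR-21a-5p and miR-143-3p, all had counts, and took 17.0% to 21.8% of the counts in freeze-dried and 24.5% to 27.3% in unmodified libraries.

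The cluster was a minor part of the EV miRNAs in both groups, and miR-132-3p made up most of it. Together the 4 strands had 1737, 620 and 87 counts in freeze-dried replicates 1 to 3, against 581 and 44 counts in unmodified replicates 1 and 2. Their summed level was 455 ± 198 CPM in freeze-dried EVs (SD, n = 3) and 453 ± 164 CPM in unmodified EVs (SD, n = 2). The ranges overlapped, at 240 to 631 CPM in freeze-dried and 337 to 569 CPM in unmodified libraries. The difference of the mean log2(CPM + 1) was -0.05, less than the spread between libraries within a group (SD 0.67), and it was 0.21 when miR-132-5p was left out of the sum, an alternative added with the values in view. miR-132-3p made up 96.1%, 65.2% and 78.2% of the cluster's counts in freeze-dried replicates 1 to 3, against 64.9% and 86.4% in unmodified replicates 1 and 2.

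The cluster was selected on earlier results for this contrast, in which miR-132-5p had counts in unmodified and none in freeze-dried EVs. The members' values by group are therefore a description, and no p is attached to them. Over the whole table, edgeR's quasi-likelihood test with Benjamini-Hochberg adjustment called 0 of 327 tested miRNAs between freeze-dried and unmodified EVs, or 0% (lowest adjusted p 0.976). DESeq2 also called 0. An unadjusted p under 0.05 was found for 9 miRNAs by edgeR and for 16 by DESeq2. All 4 strands passed the filter on low counts. miR-132-5p, with 0 counts in every freeze-dried library, passed only through the unmodified ones. A strand that passes in this way cannot overlap between the groups. The groups' CPM values did not overlap for 1 of the 4 strands, miR-132-5p, which was lower in freeze-dried EVs. They did not overlap for 57 of the 327 tested miRNAs, or 17.4%, with 8.56% lower and 8.87% higher in freeze-dried EVs. In bulk vesicle RNA, fewer vesicles that carry a miRNA and less of it per vesicle cannot be told apart.

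**Figure D1:**
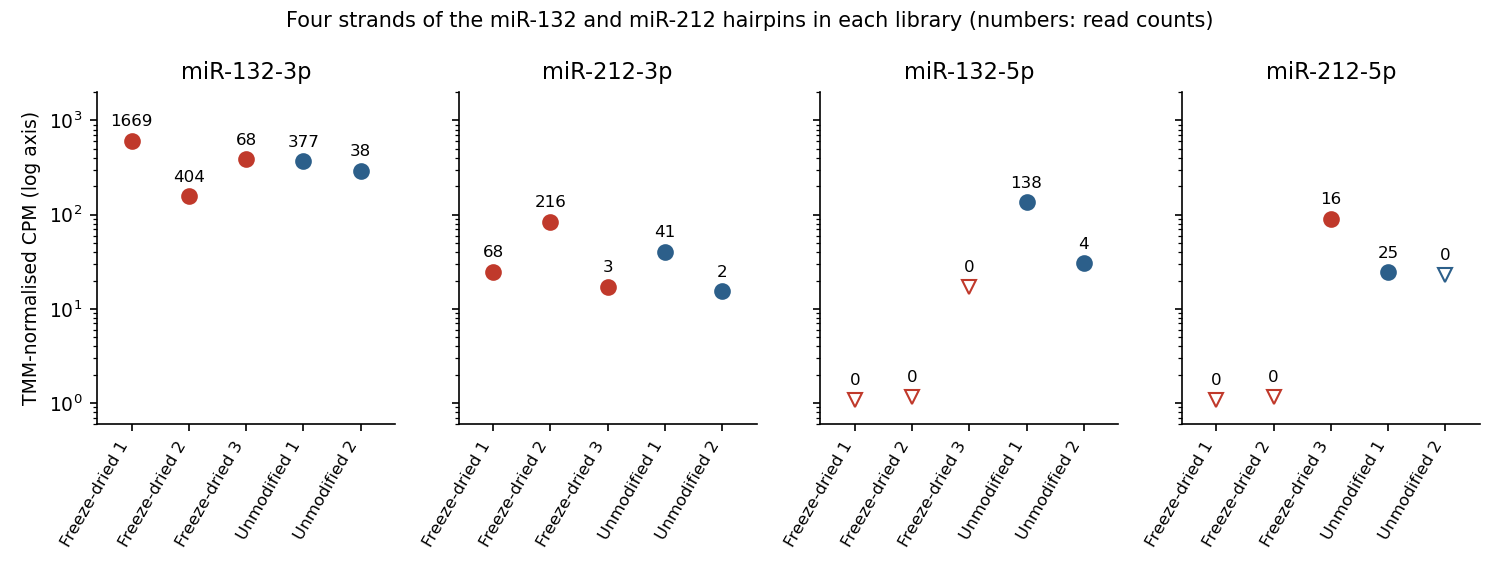
TMM-normalised CPM (log axis) of the 4 strands in 3 freeze-dried (red) and 2 unmodified (blue) libraries, with the read count beside each point; open triangles mark a count of 0, drawn at the level of 3 counts in that library. miR-132-3p was above 150 CPM in every library, while miR-132-5p had counts in the 2 unmodified libraries and none in the 3 freeze-dried ones.

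miR-132-3p, the main guide strand of the cluster, had counts in all 5 libraries. It stood at 606, 157 and 387 CPM in freeze-dried replicates 1 to 3, against 369 and 291 CPM in unmodified replicates 1 and 2. Both the highest and the lowest value belonged to freeze-dried EVs, 3.87-fold apart, and the unmodified values lay between them. The means were 383 ± 225 CPM in freeze-dried EVs (SD, n = 3) and 330 ± 55.6 CPM in unmodified EVs (SD, n = 2), with a fitted log2 fold change of 0.21 (SE 0.83). Its direction turned on 1 library, being -0.28 without freeze-dried replicate 1. By mean CPM miR-132-3p ranked 122 among the 327 tested miRNAs, and within single libraries it ranked between 98 and 152. Its log2(CPM + 1) had an SD of 0.71 over the 5 libraries, close to the median of 0.69 for the 192 tested miRNAs that averaged 100 CPM or more.

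miR-212-3p, which pairs with the same seed matches, was about an order of magnitude less abundant. It had 68, 216 and 3 counts in freeze-dried replicates 1 to 3 (24.7, 83.8 and 17.1 CPM), against 41 and 2 counts in unmodified replicates 1 and 2 (40.2 and 15.3 CPM). The groups overlapped, the highest value being that of freeze-dried replicate 2, and both shallow libraries had no more than 3 counts. The means were 41.9 ± 36.5 CPM in freeze-dried EVs (SD, n = 3) and 27.7 ± 17.6 CPM in unmodified EVs (SD, n = 2). The fitted log2 fold change was 0.58 (SE 2.28) and became -0.44 without freeze-dried replicate 2, 1.52 without unmodified replicate 1 and 0.05 without unmodified replicate 2.

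The 3p strands did not keep a fixed ratio to each other. miR-132-3p took 96.1% of the counts of both 3p strands in freeze-dried replicate 1 (exact binomial interval 95.1 to 96.9), 65.2% in replicate 2 (interval 61.3 to 68.9) and 95.8% in replicate 3 (interval 88.1 to 99.1). In unmodified EVs it took 90.2% in replicate 1 (interval 86.9 to 92.9) and 95.0% in replicate 2 (interval 83.1 to 99.4). Freeze-dried replicate 2 stood apart, with the lowest miR-132-3p and the highest miR-212-3p of the series. There miR-132-3p had 1.87 counts for each count of miR-212-3p, against 24.5 and 22.7 in freeze-dried replicates 1 and 3 and 9.20 and 19.0 in unmodified replicates 1 and 2. The 2 deep freeze-dried libraries thus lay at the extremes of this ratio, and the unmodified libraries lay between them.

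Other neighbouring hairpins give a scale for this. Of 14 pairs of adjacent single-copy hairpins within 1000 bases on one strand whose leading strands (those with more counts) were tested, the pair of Mir212 and Mir132 had the 4th highest spread, with an SD of the log2 ratio over the 5 libraries of 1.52. The median of the 14 pairs was 0.61. The highest spread, 3.09, was between miR-17-5p and miR-18a-3p of the miR-17 cluster. The less abundant strand averaged 36.2 CPM in the pair of Mir212 and Mir132. It averaged 126, 111 and 6.00 CPM in the pairs with a higher spread, and 117 CPM or more in those with a lower one. The part of low counts in this spread was not tested.

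**Figure D2:**
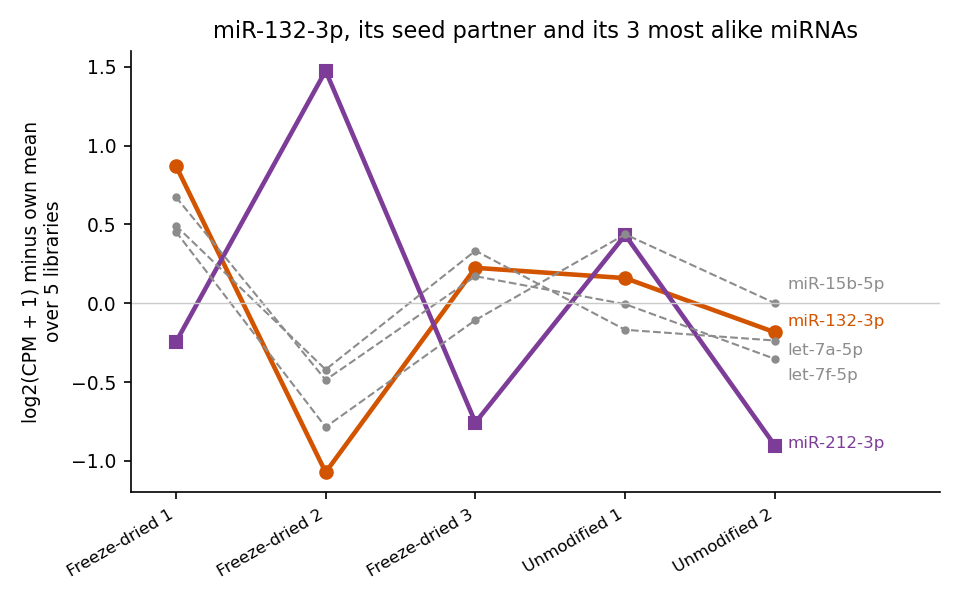
log2(CPM + 1) of each miRNA minus its own mean over the 5 libraries, for miR-132-3p (orange), miR-212-3p (purple) and the 3 tested miRNAs with the smallest root mean square difference from miR-132-3p (grey). In freeze-dried replicate 2 miR-132-3p (157 CPM) was at its lowest and miR-212-3p (83.8 CPM) at its highest.

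The profile of miR-132-3p over the libraries was closer to those of unrelated abundant miRNAs than to that of its seed partner. Likeness was measured as the root mean square difference of log2(CPM + 1), centred on each miRNA's mean over the 5 libraries. The smallest differences were those of let-7f-5p (0.30), miR-15b-5p (0.31) and let-7a-5p (0.37). None of these has the seed of miR-132-3p, and let-7f-5p and let-7a-5p belong to the let-7 family, whose members rise as cells differentiate. let-7f-5p stood at 41613, 18603 and 29359 CPM in freeze-dried replicates 1 to 3, against 25964 and 20406 CPM in unmodified replicates 1 and 2. It was, like miR-132-3p, highest in freeze-dried replicate 1 and lowest in replicate 2. miR-212-3p came 159th among the other 326 tested miRNAs, with a difference of 1.36, miR-212-5p 263rd (2.72) and miR-132-5p 304th (3.08). This measure grows with counting error and with zeros. miR-212-3p had only 3 and 2 counts in the shallow libraries, and the 5p strands had zeros. The part of low abundance in these orders was not tested.

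miR-132-5p, the partner strand of miR-132-3p, was the member for which the libraries of the groups did not overlap. It had 0, 0 and 0 counts in freeze-dried replicates 1 to 3, against 138 and 4 counts in unmodified replicates 1 and 2 (135 and 30.6 CPM). The limits were lowest in freeze-dried replicates 1 and 2, the deepest libraries of the series, where 3 counts would be 1.09 and 1.16 CPM. Library by library, the unmodified level was divided by the level of 3 counts in the freeze-dried library. For freeze-dried replicates 1 and 2 this ratio was 124 and 116 against unmodified replicate 1. Against unmodified replicate 2 it was 28.1 and 26.3 for these 2 libraries. Between the shallow libraries, freeze-dried replicate 3 and unmodified replicate 2, the ratio was only 1.80. The ratios leave out the counting error of the unmodified count, which was only 4 in replicate 2, so they are not lower bounds. With every library thinned once to 131507 counts, the 138 counts of unmodified replicate 1 became 17. Thinning cannot change a count of 0, and unmodified replicate 2 was already at this total with its 4 counts. It is therefore no check of the zeros in freeze-dried EVs.

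**Figure D3:**
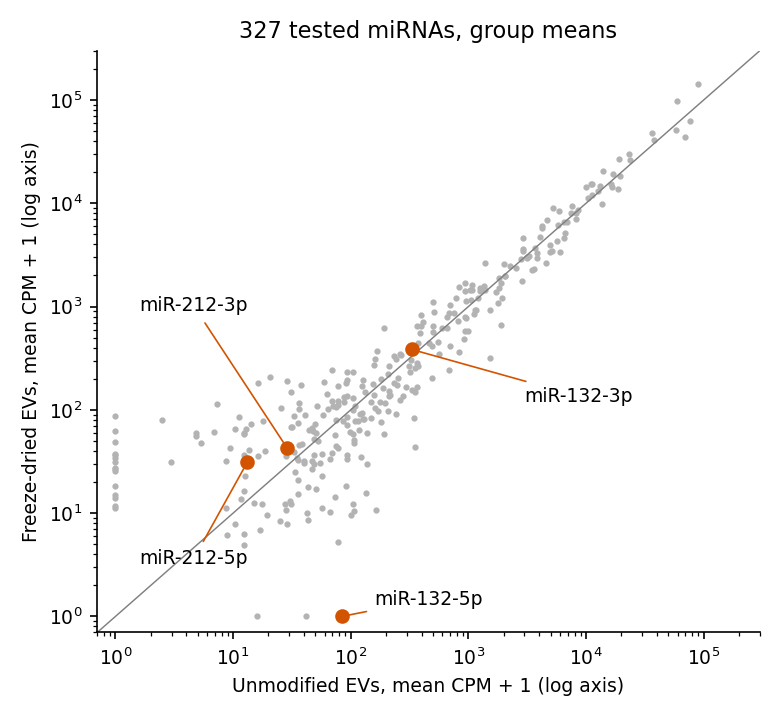
Mean CPM + 1 of each of the 327 tested miRNAs in freeze-dried EVs (vertical, n = 3) against unmodified EVs (horizontal, n = 2), both on log axes, with the 4 strands in orange and the line of equal means in grey. miR-132-3p lies near the line, and miR-132-5p lies at the bottom, at 0 CPM in freeze-dried EVs.

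Counts of this kind in 1 group and zeros in the other were uncommon but not limited to miR-132-5p. Of 180 miRNAs with at least 100 counts in unmodified replicate 1, 2 had 0 counts in all freeze-dried libraries, miR-132-5p and miR-7b-5p. miR-7b-5p, named here after its values were seen, had 238 counts in unmodified replicate 1 and 0 in replicate 2. Of 253 miRNAs with a count in both unmodified libraries, 4 were at 0 in the 3 freeze-dried ones. They were miR-132-5p itself, miR-1949, miR-5128 and miR-96-5p. In the other direction, 4 of 236 miRNAs with a count in every freeze-dried library were at 0 in both unmodified ones. The 3 deep libraries also differed among themselves in this way. Of the miRNAs at 100 CPM or more, 3 of 177 in freeze-dried replicate 1, 2 of 181 in freeze-dried replicate 2 and 3 of 179 in unmodified replicate 1 were at 0 in the other 2 deep libraries, and miR-132-5p was one of the last 3.

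miR-212-5p, the partner strand of miR-212-3p, also had counts in 2 libraries, but in 1 of each group. It had 0, 0 and 16 counts in freeze-dried replicates 1 to 3 (91.0 CPM in replicate 3), against 25 and 0 counts in unmodified replicates 1 and 2 (24.5 CPM in replicate 1). The groups therefore overlapped, and the deepest 2 libraries were again at 0. Its fitted log2 fold change was 1.15 (SE 3.38), and all of its freeze-dried counts were in replicate 3. With the replicate number as a block, which leaves that library unpaired, the fitted value was -6.16 and depends on the prior count, as both paired freeze-dried libraries are at 0. It was 8.40 without unmodified replicate 1, which leaves the unmodified side at 0 and so depends on the prior count too, and 0.17 without unmodified replicate 2. In unmodified replicate 2 the limit of 23.0 CPM is close to the level in replicate 1, so a difference between those 2 libraries was not detectable at this depth. Both 5p strands were seen together only in unmodified replicate 1, and neither was seen in freeze-dried replicates 1 and 2, where the 3p strands had 1669 and 404 counts (miR-132-3p) and 68 and 216 counts (miR-212-3p).

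Strand use within a hairpin does not depend on the scaling between libraries. The 5p share of the miR-132 counts was 0% in all 3 freeze-dried libraries. With 0 of 1669, 0 of 404 and 0 of 68 counts, the exact binomial intervals gave upper limits of 0.221%, 0.909% and 5.28%. In unmodified EVs the share was 26.8% in replicate 1 (exact binomial interval 23.0 to 30.8) and 9.52% in replicate 2 (4 of 42 counts, interval 2.66 to 22.6). Both lower bounds were above the limits of the 2 deep freeze-dried libraries, while that of unmodified replicate 2 was below the limit of the shallow freeze-dried replicate 3.

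For miR-212 the 5p share followed no group. It was 0%, 0% and 84.2% in freeze-dried replicates 1 to 3, against 37.9% and 0% in unmodified replicates 1 and 2. The value of 84.2% rests on 19 counts (exact binomial interval 60.4 to 96.6) and that of unmodified replicate 2 on 2 counts. Freeze-dried replicate 3 was the only library in which the 5p strand of either hairpin outnumbered the 3p strand.

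**Figure D4:**
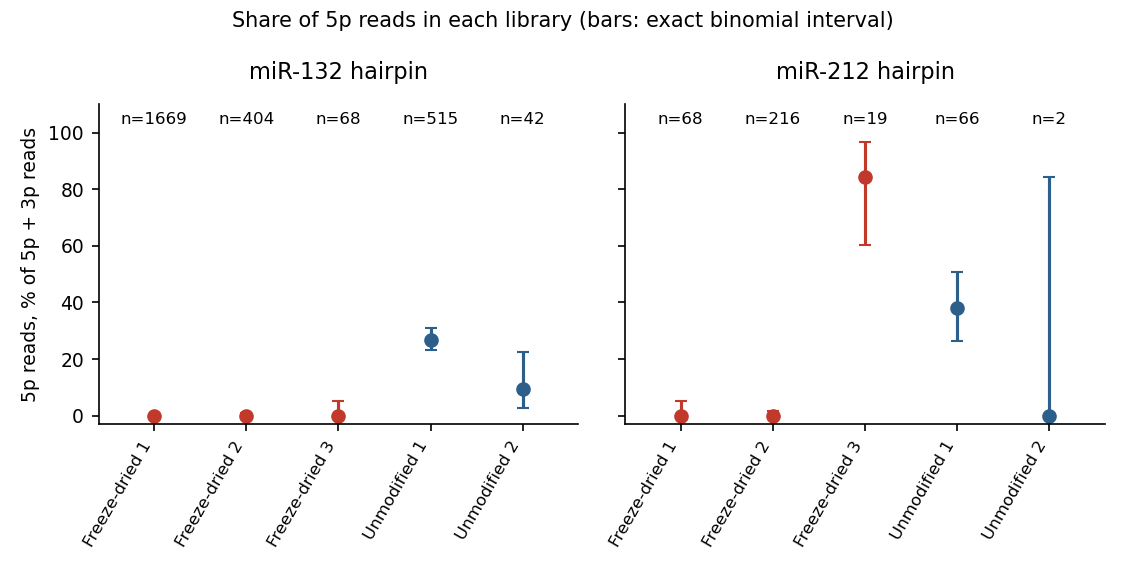
5p reads as a percentage of 5p and 3p reads together for the miR-132 (left) and miR-212 (right) hairpins in 3 freeze-dried (red) and 2 unmodified (blue) libraries, with exact 95% binomial intervals and the counts behind each point. The miR-132 share was 0% in every freeze-dried library and 26.8% and 9.52% in the unmodified ones, while the miR-212 share reached 84.2% in freeze-dried replicate 3.

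Other hairpins also changed strand share between libraries. Among 71 hairpins with both strands tested, the range of the 5p share over the 5 libraries had a median of 14.0 percentage points. The range of miR-132, 26.8 points, was the 29th highest, and that of miR-212, 84.2 points, the 9th highest. Among the 49 of these hairpins with at least 40 counts of both strands together in every library, the median was 5.59 points and miR-132 ranked 8th. The lowest library total of miR-132 was 42 counts, so it only just passed this cut, and its rank depends on the cut. Of the 71 hairpins, miR-132 was the only one whose minor strand had a count in both unmodified libraries and none in the freeze-dried ones. The cluster was selected on this pattern, so it describes the choice. The reverse pattern was found for the minor 5p strands of miR-148a and miR-143, which had 0% in both unmodified libraries. In freeze-dried replicates 1 to 3 the share was 3.65%, 3.39% and 1.77% for miR-148a and 0.0348%, 0.101% and 0.0977% for miR-143. In unmodified replicate 2 miR-148a had only 84 counts of both strands together, so a share of this size could be missed there. In freeze-dried replicate 3 miR-148a-5p stood at 11.4 CPM, below the 17.1 CPM of 3 counts.

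miRNAs of the settings in which miR-132 is best known were present unevenly. Of 13 neuron-enriched miRNAs, 8 had a count and 7 were tested. edgeR called 0 of these 7 higher and 0 lower, with 6 fitted above and 1 below a fold change of 1. Their median log2 fold change was 0.77, beside 0.02 over all tested miRNAs. The list took 2.35% to 2.99% of the counts in freeze-dried and 1.50% to 2.50% in unmodified libraries, most of it miR-125a-5p, a miRNA that many tissues express, and miR-129-5p. miR-125a-5p stood at 20763 ± 1398 CPM in freeze-dried EVs (SD, n = 3) and 13929 ± 4133 CPM in unmodified EVs (SD, n = 2), and miR-129-5p at 2880 ± 923 CPM in freeze-dried and 2787 ± 954 CPM in unmodified EVs. miR-124-3p, the most neuron-restricted of the list, had 31, 0 and 1 counts in freeze-dried replicates 1 to 3, against 169 and 0 in unmodified replicates 1 and 2. miR-134-5p, miR-137-3p, miR-138-5p, miR-153-3p and miR-219a-5p had 0 counts in all 5 libraries.

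Of 13 angiogenesis-linked miRNAs, 12 matched a row, 10 had a count and 9 were tested. edgeR called 0 of these 9 higher and 0 lower, with 2 fitted above and 7 below a fold change of 1 and a median log2 fold change of -0.07. They took 3.27% to 3.60% of the counts in freeze-dried and 3.65% to 4.51% in unmodified libraries. The most abundant were miR-221-3p and miR-222-3p, made from neighbouring hairpins. miR-221-3p stood at 15359 ± 918 CPM in freeze-dried EVs (SD, n = 3) and 16163 ± 884 CPM in unmodified EVs (SD, n = 2), and miR-222-3p at 8096 ± 1258 CPM in freeze-dried and 8208 ± 1349 CPM in unmodified EVs. The endothelial miR-126a-3p stood at 125 ± 89.9 CPM in freeze-dried EVs (SD, n = 3) and 261 ± 141 CPM in unmodified EVs (SD, n = 2). The other strand of its hairpin, miR-126a-5p, went the other way and was not tested. It had 265, 0 and 2 counts in freeze-dried replicates 1 to 3, against 0 and 0 in unmodified replicates 1 and 2.

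Markers of other cell types were low or mixed. The epithelial list had a count for 8 of 11 members. It took 0.476% to 0.619% of the counts in freeze-dried libraries, against 0.712% to 0.821% in unmodified ones. Its members did not all go that way. In freeze-dried replicates 1 to 3 miR-200a-3p had 0, 241 and 2 counts and miR-200b-3p had 93, 0 and 2. miR-205-5p had 24, 0 and 0 counts there. These miRNAs had 0 counts in both unmodified libraries and were not tested. The groups did not overlap for 3 tested members of this list, miR-203-3p, miR-183-5p and miR-96-5p, all lower in freeze-dried EVs. Over all tested miRNAs 8.56% were lower without overlap. All 5 tested members of the list were fitted below a fold change of 1. Its miR-182-5p stood at 2989 ± 525 CPM in freeze-dried EVs (SD, n = 3) and 3131 ± 530 CPM in unmodified EVs (SD, n = 2), and its miR-183-5p at 2284 ± 249 CPM in freeze-dried and 3479 ± 785 CPM in unmodified EVs. Its defining miR-200c-3p, miR-141-3p and miR-429-3p had 0 counts in all libraries, and the part of this list, and of the mesenchymal and angiogenesis-linked lists, whose shares also did not overlap, in the miR-132-5p difference was not tested. The leukocyte list had a count for 3 of 5 members, with miR-142a-3p and miR-142a-5p at 0 throughout, and took 0.0852% to 0.138% of the counts in freeze-dried and 0.0567% to 0.123% in unmodified libraries. Its most abundant miRNAs were miR-155-5p, at 1033 ± 331 CPM in freeze-dried EVs (SD, n = 3) and 691 ± 613 CPM in unmodified EVs (SD, n = 2), and miR-150-5p, at 14.7 ± 20.8 CPM in freeze-dried and 134 ± 27.6 CPM in unmodified EVs. The red cell list took 0.0922% to 0.170% in freeze-dried and 0.0758% to 0.120% in unmodified libraries, and the hepatocyte list 0.0329% to 0.0442% in freeze-dried and 0.0296% to 0.0806% in unmodified libraries. Their most abundant miRNAs were miR-486a-5p (642 ± 295 CPM in freeze-dried and 499 ± 269 CPM in unmodified EVs), miR-486b-5p (329 ± 194 CPM in freeze-dried and 232 ± 148 CPM in unmodified EVs), miR-192-5p (135 ± 106 CPM in freeze-dried and 276 ± 390 CPM in unmodified EVs) and miR-122-5p (196 ± 118 CPM in freeze-dried and 178 ± 122 CPM in unmodified EVs), with SD over 3 and 2 libraries. The mesenchymal list, with miR-21a-5p at 63027 ± 21607 CPM in freeze-dried and 76543 ± 15573 CPM in unmodified EVs and miR-143-3p at 43439 ± 7446 CPM in freeze-dried and 68872 ± 11387 CPM in unmodified EVs, had 0 of 12 members called. Of the leukocyte, red cell and hepatocyte lists, 3 miRNAs each were tested, and edgeR called 0 higher and 0 lower, as it did of the 5 tested epithelial miRNAs.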

How the data were processed

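The authors deposited raw counts of reads for each mature miRNA in 5 libraries. Tools listed in the submitters' processing notes, without their order, include cutadapt 2.3, Bowtie 1.1.2 and featureCounts 1.5.0-p1, with the build GRCm38. How strand, multiple matches and PCR duplicates were handled is not stated there, and shared or shortened reads could move counts between similar strands. Columns were assigned by the sample names in the labels, and 0 pairs of libraries were identical.

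Counts were fitted over all 327 miRNAs that passed filterByExpr with edgeR 4.0.16 in R 4.3.3 (robust quasi-likelihood F test, TMM, threshold 0.05 on Benjamini-Hochberg values). SEs were derived from the fitted log2 fold change and its F statistic. CPM uses TMM-scaled totals, with a pseudocount of 1 on the log scale. Functions were tested on simulated counts. Named are the 4 members, the 3 tested miRNAs most like miR-132-3p, miRNAs sharing a member's seed, and per list its called miRNAs or its 2 most abundant; others were chosen after their values were seen. Members and lists were chosen with earlier results of these data known. Alternatives were 3 other scalings, 2 other filters, DESeq2 1.42.0, thinning, other pseudocounts, leaving out each library, and the replicate number as a block.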

Additional observations from a re-analysis of the deposited data

How the results depend on the processing

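Depth limits the low strands: 3 counts are 17.1 CPM in freeze-dried replicate 3 and 23.0 CPM in unmodified replicate 2, close to the levels of miR-212-3p there. The count of 0 miRNAs called higher held under every alternative run. The count of 0 called lower became 4 with the replicate block (miR-3069-3p, miR-6239, miR-6240 and miR-6538, none of them a member) and stayed 0 otherwise. Of these, miR-3069-3p, miR-6240 and miR-6538 were highest in the shallow libraries, freeze-dried replicate 3 and unmodified replicate 2, which the block does not pair. miR-6538 stood at 0, 57.8 and 3565 CPM in freeze-dried replicates 1 to 3, against 49.0 and 3835 CPM in unmodified replicates 1 and 2. miR-6239 was lower in every freeze-dried library than in the unmodified ones. The part of the shallow libraries in these calls was not tested. The replicate numbers give only 2 pairs, whose deviations from the group means correlated at 0.15 and -0.11. With 2 unmodified libraries their deviations are mirror images, so these values are not independent and cannot decide whether the libraries are paired. Leaving out an unmodified library leaves 1, assumed to vary as the others do. With the replicate block the summed cluster log2 ratio was -0.17 and the miR-132-3p log2 fold change -0.08. The difference in the 5p share of miR-132, -18.2 percentage points, ranged from -26.8 to -9.52 without 1 library and was -15.8 after thinning. That of miR-212, 9.13 points, ranged from -18.9 to 28.1 without 1 library. The summed cluster log2 ratio of -0.05 ranged from -0.48 to 0.39 without 1 library and from -0.18 to -0.03 under the other scalings and filters. The cause of these shifts was not tested. With at least 10 counts in 3 libraries the 5p strands were not tested, and after thinning only miR-132-3p of the members was tested. Without unmodified replicate 1, which held 138 of the 142 counts of miR-132-5p, that strand was not tested. Nor was miR-212-5p without freeze-dried replicate 3. The members have no fitted value where they were not tested.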
